A study of Homo sapiens with 9 samples.

Results

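The basement membrane collagens are the 6 chains of collagen IV, COL4A1 to COL4A6, and the 2 multiplexin chains COL15A1 and COL18A1. They were taken by gene symbol and make up 8 of the 27111 genes in the files. All 8 are listed in each library, and 7 had enough counts to be tested, the exception being COL15A1. Their transcripts were measured by RNA-seq in multicellular tumor spheroids (MTSs) of PC-3, a human prostate cancer line derived from a bone metastasis. The cells carried pSIN-Empty, a lentiviral vector with no insert (Empty), or the same vector with the long (NF-YAl) or the short (NF-YAs) splice variant of NF-YA, the subunit through which the trimeric factor NF-Y contacts the CCAAT box of promoters. The inserts are murine sequences. NF-YAl contains the residues of exon 3, within the transactivation domain, and NF-YAs lacks them. All lines went through lentiviral infection and puromycin selection, and the empty vector line also expresses its own NF-YA. Each group had 3 libraries, each from pooled MTSs of a single line. The MTSs were grown with Matrigel, itself an extract of mouse basement membrane, so the cells of all groups met collagen IV protein from outside. Reads were counted on human transcripts only.

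Collagen IV is the network-forming collagen of the basement membrane. Its 6 chains assemble inside the cell into 3 kinds of trimer, α1α1α2, α3α4α5 and α5α5α6, which join after secretion into a mesh that binds laminins, nidogens and perlecan. The genes lie in pairs, head to head, so that COL4A1 and COL4A2, COL4A3 and COL4A4, and COL4A5 and COL4A6 are each transcribed in opposite directions from a short shared stretch. Collagens XV and XVIII are collagens with heparan or chondroitin sulfate chains that sit at the border of the basement membrane, and the C-terminal end of collagen XVIII is released as endostatin.

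NFYA was counted on the human transcripts, so reads of the murine transgene that align there cannot be told apart from those of the endogenous gene. It was measured at 89.3, 96.7 and 89.4 CPM (counts scaled by TMM to a common library size) in Empty, at 287, 383 and 353 CPM in NF-YAl and at 265, 263 and 254 CPM in NF-YAs. The libraries held between 18076979 and 27163976 expected counts. Replicate libraries correlated at 0.976 to 0.995 (Pearson's r of log2 values across genes), and the lowest value was that of NF-YAl replicates A and D. Of the PC-3 markers checked, KRT8 and KRT18 were present in all groups with a sum over 4 epithelial genes of 612 to 695 CPM in Empty, 375 to 403 CPM in NF-YAl and 397 to 457 CPM in NF-YAs. This sum is mostly the keratins. EPCAM had means of 0.982, 4.42 and 2.71 CPM in Empty, NF-YAl and NF-YAs, and CDH1 of 6.58, 7.45 and 2.63 CPM. EPCAM was thus higher in both lines, and CDH1 moved in opposite directions. KLK3, a prostate gene that this line lacks, was at 0 counts in all libraries. The 5 fibroblast markers summed to at most 1.43 CPM in any library, and the 5 endothelial markers to 13.04 to 14.4 CPM in Empty, 6.42 to 7.21 CPM in NF-YAl and 8.35 to 9.12 CPM in NF-YAs. Their part in the results was not tested. In pooled spheroids, a change in RNA per cell cannot be told apart from a change in the share of cells that express a gene.

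The stretches between the partners are shown first, because both expressed pairs are read from them. They are RefSeq sequences of GRCh38.p14 on the plus strand, with CCAAT or its reverse complement ATTGG, and GGGCGG or its reverse complement CCGCCC, in capitals. The first is the whole of the 126 bases between the starts of COL4A1, to its left, and COL4A2, to its right, at chr13:110307158-110307283. The second is the part common to the 250 bases before COL4A6, to its left, and the 250 bases before COL4A5, to its right, at chrX:108439588-108439708, out of 379 bases between those starts.
COL4A1/COL4A2: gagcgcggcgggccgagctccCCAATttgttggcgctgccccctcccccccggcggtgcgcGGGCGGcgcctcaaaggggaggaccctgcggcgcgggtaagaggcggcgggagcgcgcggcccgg
COL4A6/COL4A5: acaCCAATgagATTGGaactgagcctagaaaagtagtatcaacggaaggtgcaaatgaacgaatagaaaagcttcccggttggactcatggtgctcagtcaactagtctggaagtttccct
Both stretches were found once, base for base, in GRCh37, the build on which the reads were counted, at chr13:110959505-110959630 and chrX:107682818-107682938. The COL4A1/COL4A2 stretch held 1 CCAAT and 1 GGGCGG and had a GC content of 80.2%. The COL4A6/COL4A5 stretch held 2 CCAAT motifs, 1 on each strand, no GGGCGG, and 44.6% GC.

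The RefSeq windows from 250 bases before to 50 bases after a start were searched for the same letters on both strands in all 8 genes, which matched 10 windows. CCAAT was present in 34.6% of all 35116 windows and GGGCGG in 45.0%. Among the members, CCAAT was found in the windows of COL4A1 and COL4A2, which overlap and share a single copy, in that of COL4A5 with 2 copies and in the nearer of the 2 windows of COL4A6 with 3 copies. These windows of COL4A5 and COL4A6 overlap in the stretch printed above. The 2 copies of COL4A5 lie there and are also among the 3 of COL4A6. The farther window of COL4A6 held 0 copies. At least 2 copies were present in 10.8% of all windows. The windows of COL4A3, COL4A4, COL15A1 and COL18A1 held none, which says only that these letters are missing there. The upstream start of COL18A1 had 9 copies of GGGCGG in the 250 bases before it (at least 4 in 9.06% of all windows) and 88.4% GC, and lies at chr21:45404915-45405164 of GRCh38.p14.
COL18A1 upstream start: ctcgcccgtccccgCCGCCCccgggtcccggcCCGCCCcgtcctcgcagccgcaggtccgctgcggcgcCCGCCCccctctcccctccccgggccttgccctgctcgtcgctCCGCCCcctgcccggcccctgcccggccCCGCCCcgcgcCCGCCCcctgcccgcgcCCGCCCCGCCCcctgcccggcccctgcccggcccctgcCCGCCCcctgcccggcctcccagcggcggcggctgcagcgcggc

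Of the members that passed the test, COL4A1 and COL4A2 had the largest changes in both lines. COL4A1, the α1 chain, was at 34.2, 39.6 and 41.5 CPM in Empty, at 107, 133 and 124 CPM in NF-YAl and at 156, 187 and 157 CPM in NF-YAs. The groups did not overlap, and NF-YAs libraries were the highest. Against Empty, COL4A1 was 3.16-fold higher in NF-YAl (log2FC 1.66 ± 0.12 SE, adjusted p = 2.3e-06) and 4.34-fold higher in NF-YAs (log2FC 2.12 ± 0.12 SE, adjusted p = 4.55e-07) in edgeR's quasi-likelihood test. COL4A2, the α2 chain, was at 98.0, 102.8 and 104.3 CPM in Empty, at 198, 284 and 230 CPM in NF-YAl and at 370, 440 and 364 CPM in NF-YAs. Here too the groups were fully separated. COL4A2 was 2.33-fold higher in NF-YAl (log2FC 1.22 ± 0.13 SE, adjusted p = 3.32e-05) and 3.85-fold higher in NF-YAs (log2FC 1.94 ± 0.13 SE, adjusted p = 1.45e-06). The comparisons share the Empty libraries and are therefore not independent. In the GENCODE annotation of GRCh37, COL4A1 lies at chr13:110801310-110959504 on the minus strand and COL4A2 at chr13:110958159-111165556 on the plus strand. Their annotated ends overlap by 1346 bases through an alternative COL4A2 transcript, and reads from the overlap cannot be assigned with certainty.

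COL4A5 was the most abundant collagen IV transcript in each library on the TPM scale. The gene, whose α5 chain takes part in the α3α4α5 and α5α5α6 trimers and is the chain altered in X-linked Alport syndrome, was at 211, 216 and 234 CPM in Empty, at 364, 480 and 314 CPM in NF-YAl and at 450, 497 and 501 CPM in NF-YAs. The libraries of both lines lay above those of Empty. The difference was 1.75-fold in NF-YAl (log2FC 0.81 ± 0.14 SE, adjusted p = 0.000821) and 2.19-fold in NF-YAs (log2FC 1.13 ± 0.14 SE, adjusted p = 7e-05). NF-YAl and NF-YAs overlapped, since the 480 CPM of NF-YAl replicate B exceeded the lowest of NF-YAs.

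COL4A6, the partner of COL4A5 and source of the α6 chain, did not follow it in NF-YAl. It was at 32.6, 28.1 and 32.2 CPM in Empty, at 22.0, 35.1 and 19.8 CPM in NF-YAl and at 49.7, 48.7 and 54.0 CPM in NF-YAs. NF-YAl had both the lowest libraries and, in replicate B, a value above all of Empty, whereas NF-YAs was above the other groups. The log2FC was -0.27 ± 0.18 SE in NF-YAl (adjusted p = 0.270) and 0.71 ± 0.17 SE in NF-YAs (adjusted p = 0.00724, 1.64-fold). The first did not pass the test in the full data, but without NF-YAl replicate B it was -0.57 with an adjusted p of 0.00469. The second lost the call when any 1 of the 6 libraries of Empty and NF-YAs was left out, with log2FC values of 0.65 to 0.76 and adjusted p values from 0.0196 to 0.0354, and with limma on TPM (adjusted p = 0.0558). COL4A6 and COL4A5 lie at chrX:107398837-107682727 on the minus strand and chrX:107683068-107940775 on the plus strand of GRCh37.

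COL4A3 and COL4A4, the α3 and α4 chains of the glomerular and alveolar basement membranes, were near the limit of detection. For COL4A3 the Empty libraries had 13, 3 and 4 counts, those of NF-YAl 26, 21 and 7 and those of NF-YAs 13, 9 and 11. For COL4A4 the Empty libraries had 34, 37 and 35 counts, those of NF-YAl 50, 47 and 34 and those of NF-YAs 19, 26 and 43. The groups of both genes overlapped in all comparisons. For COL4A3 the log2FC was 1.58 ± 0.62 SE in NF-YAl (adjusted p = 0.0689) and 1.01 ± 0.66 SE in NF-YAs (adjusted p = 0.259). For COL4A4 it was 0.47 ± 0.30 SE in NF-YAl (adjusted p = 0.269) and 0.02 ± 0.31 SE in NF-YAs (adjusted p = 0.970). No difference in these genes passed the test with all libraries. With a replicate block, COL4A3 in NF-YAl did (log2FC 1.94, adjusted p = 0.00761), and with 1 library left out its adjusted p ranged from 0.0105, without NF-YAl replicate D, to 0.230, without NF-YAl replicate A. They lie at chr2:228029340-228179508 on the plus strand and chr2:227867430-228029169 on the minus strand of GRCh37.

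COL18A1, the precursor of endostatin, had 3054 to 5449 counts in the libraries and did not pass the test in any comparison. It was at 171, 197 and 174 CPM in Empty, at 191, 223 and 155 CPM in NF-YAl and at 164, 177 and 179 CPM in NF-YAs. The groups overlapped throughout. The log2FC was 0.07 ± 0.12 SE in NF-YAl (adjusted p = 0.720) and -0.06 ± 0.12 SE in NF-YAs (adjusted p = 0.745), where the SE limits the size of a change that could have been missed. The gene lies at chr21:46825080-46933634 on the plus strand of GRCh37. On the opposite strand it overlaps COL18A1-AS1, COL18A1-AS2 and, by 20149 bases, SLC19A1, and whether strand was used in counting is not given in the sources used here. COL15A1 (chr9:101705461-101833074, plus strand), which codes for the other multiplexin, had 0, 3 and 1 counts in the Empty libraries, while those of NF-YAl had 1, 0 and 0 and those of NF-YAs 1, 0 and 0. No fold is given, since all groups were at or below 3 counts.

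**Figure D1:**
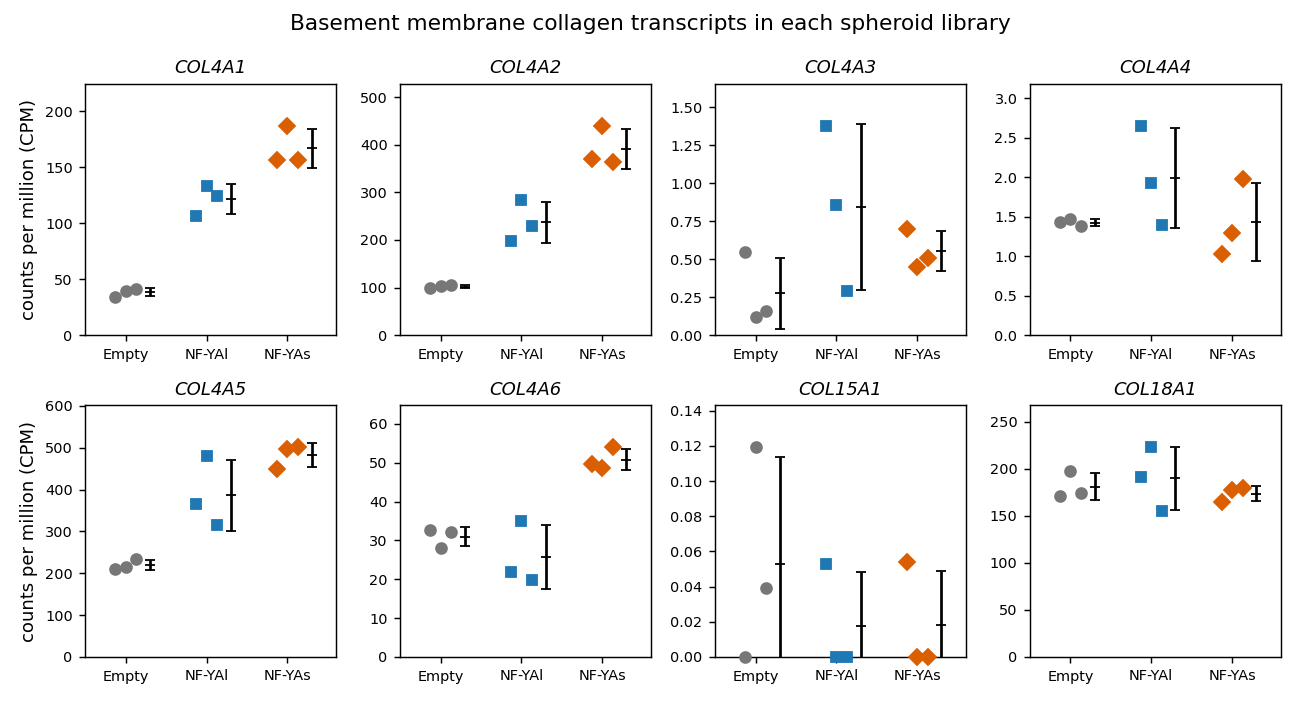
CPM of the 8 basement membrane collagens (y axes, each from 0) in the 3 libraries of Empty, NF-YAl and NF-YAs (points, x axes), with the mean and SD of each group as a black bar, cut at 0 where it would go below. COL4A1, COL4A2 and COL4A5 are above Empty in all libraries of both lines, COL4A6 only in those of NF-YAs, and COL18A1 overlaps across groups.

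As a list, 2 of the 7 tested members rose in NF-YAl with a log2FC above 1 and an adjusted p under 0.01 (a DEG), against 4.76% of all 17108 tested genes called up. In NF-YAs they were 3 of 7, COL4A1, COL4A2 and COL4A5, against 5.44%. With the adjusted p alone, 3 of 7 rose in NF-YAl, against 10% of all genes, and 4 of 7 in NF-YAs, against 12.1%. No tested member fell in either comparison at an adjusted p under 0.01, and none had an unadjusted p under 0.05 in that direction. DESeq2 and limma on TPM called none down either. The median log2FC of the 7 was 0.81 in NF-YAl and 1.01 in NF-YAs, beside medians of 0.011 and -0.0026 over all tested genes. The 8 genes were not drawn at random, and several share a promoter stretch, so the counts are given as a description.

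**Figure D2:**
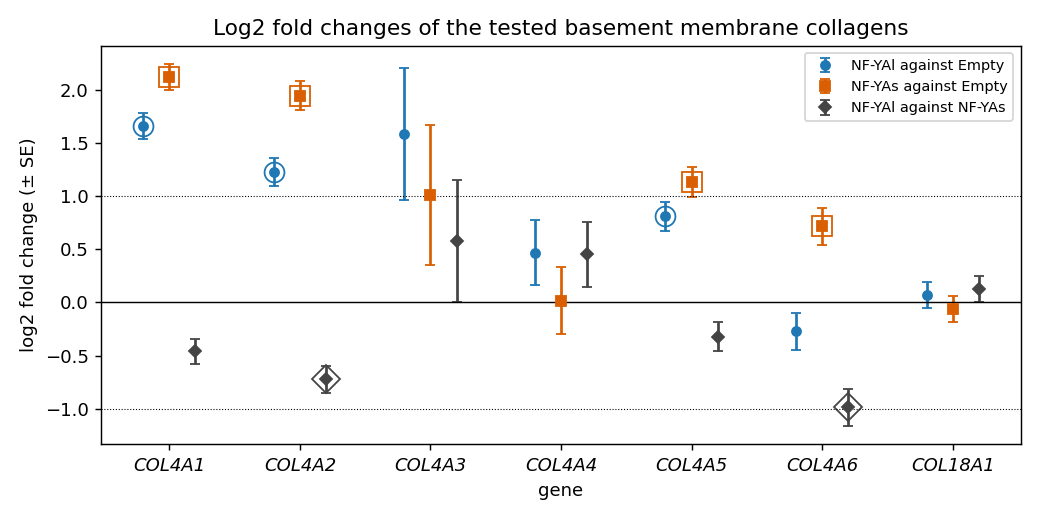
Log2 fold change ± SE (y axis) of the 7 tested members (x axis) in the 3 comparisons, from edgeR. Large open symbols mark an adjusted p under 0.01 and dotted lines a log2FC of 1 and -1. COL4A1 and COL4A2 lie above 1 in both lines, and COL4A6 is close to -1 where the lines are compared directly.

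The direct comparison set the 2 lines against each other. Each splice variant was carried by a single line, and NFYA was higher in NF-YAl (log2FC 0.39 ± 0.11 SE, adjusted p = 0.0228). Splice variant, line and NFYA level therefore cannot be told apart. COL4A2 was lower in NF-YAl than in NF-YAs (log2FC -0.72 ± 0.13 SE, adjusted p = 0.00216), at a mean of 237 ± 43.4 CPM (SD, n = 3) against 391 ± 42.6 CPM. COL4A6 was lower as well (log2FC -0.99 ± 0.18 SE, adjusted p = 0.00218), at 25.6 ± 8.24 CPM against 50.8 ± 2.78 CPM. In both genes the groups did not overlap. These were 2 of 7 members at an adjusted p under 0.01, where 6.25% of all tested genes were lower in NF-YAl. No member passed as a DEG, where 2.86% of all tested genes did as lower in NF-YAl. DESeq2 and limma on TPM likewise gave 0 DEGs. COL4A1 (log2FC -0.46 ± 0.12 SE, adjusted p = 0.0150) had groups that did not overlap and missed the threshold in edgeR, but passed it in DESeq2 (adjusted p = 0.00320). For COL4A5 the log2FC was -0.32 ± 0.14 SE (adjusted p = 0.111) and for COL18A1 0.13 ± 0.12 SE (adjusted p = 0.483). The calls of COL4A2 and COL4A6 depended on the setting. Both passed with DESeq2 (adjusted p = 6.1e-06 and 4.5e-06). They also passed with a replicate block (adjusted p = 0.00099 and 0.0044), where NF-YAl rested on replicates A and B. Neither passed in every fit. In a fit of NF-YAl and NF-YAs alone they had adjusted p values of 0.0108 and 0.0102, and with limma on TPM of 0.250 and 0.0801. Without NF-YAs replicate B the adjusted p of COL4A2 was 0.0150, and without NF-YAs replicate C that of COL4A6 was 0.0129. COL4A6 became a DEG without NF-YAl replicate B (log2FC -1.28), without NF-YAs replicate A (-1.01) and without NF-YAs replicate B (-1.02).

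The ratio of partners within a library does not depend on its depth. COL4A1 was lower than COL4A2 in all libraries, with a TPM ratio of 0.358, 0.392 and 0.411 in the Empty libraries, 0.541, 0.472 and 0.545 in those of NF-YAl and 0.423, 0.426 and 0.435 in those of NF-YAs. The groups did not overlap, and NF-YAl was the highest. On the log2 scale, with 0.1 TPM added, the ratio was higher by 0.42 in NF-YAl than in Empty, by 0.15 in NF-YAs than in Empty and by 0.28 in NF-YAl than in NF-YAs. COL4A5 exceeded COL4A6 by 6.46, 7.63 and 7.24 times in Empty, by 16.5, 13.7 and 15.8 times in NF-YAl and by 9.09, 10.2 and 9.31 times in NF-YAs. This ratio also rose without overlap between groups, by 1.10 in NF-YAl and 0.43 in NF-YAs against Empty on the log2 scale, and it was higher by 0.68 in NF-YAl than in NF-YAs. Each of these 6 differences had p = 0.1 in a two-sided exact permutation test, raw and after Benjamini-Hochberg adjustment over the 6, which is the smallest p that 3 against 3 libraries allow. This test therefore cannot reach 0.05 here. COL4A3 to COL4A4 ratios, from few counts, ranged from 0.459 to 0.917 over the libraries with overlap between groups and were not tested.

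**Figure D3:**
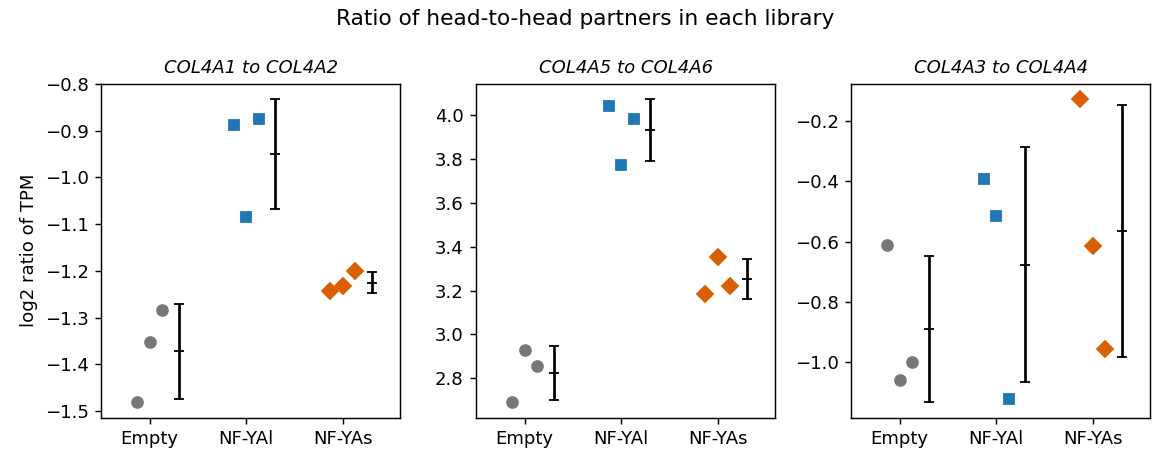
Log2 ratio of the TPM (with 0.1 added) of head-to-head partners (y axes, not from 0) in each library of Empty, NF-YAl and NF-YAs (x axes), with the mean and SD of each group as a black bar. COL4A1 to COL4A2 and COL4A5 to COL4A6 are ordered Empty, NF-YAs, NF-YAl without overlap, while COL4A3 to COL4A4 overlaps.

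The members were ordered by TPM, which accounts for transcript length. In Empty, COL4A5 (38.8 ± 4.99 TPM, SD, n = 3) and COL18A1 (37.9 ± 5.10 TPM) did not differ beyond their spread, followed by COL4A2 (18.1 ± 2.38 TPM). COL4A1 (6.89 ± 0.458 TPM) and COL4A6 (5.44 ± 1.21 TPM) came next. Their ranges over the libraries overlapped, but COL4A1 was the higher within each library. COL4A4, COL4A3 and COL15A1 were at 0.160, 0.0433 and 0.01 TPM. In NF-YAl the order was COL4A5 (82.9 ± 13.6 TPM), COL4A2 (52.8 ± 17.2 TPM), COL18A1 (48.6 ± 7.51 TPM), COL4A1 (27.5 ± 10.2 TPM) and COL4A6 (5.36 ± 0.994 TPM). Over the libraries, the range of COL4A2 overlapped those of COL4A5, COL18A1 and COL4A1. Within each library COL4A5 was above COL4A2 (71.1 and 38.9, 79.8 and 47.6, 97.7 and 72.0 TPM in replicates A, B and D), and COL4A2 above COL4A1. COL18A1 was above COL4A2 in replicate A only. In NF-YAs it was COL4A5 (95.1 ± 3.11 TPM), COL4A2 (78.0 ± 9.79 TPM), COL18A1 (40.8 ± 1.68 TPM), COL4A1 (33.3 ± 3.78 TPM) and COL4A6 (9.91 ± 0.669 TPM), each apart from its neighbours. COL4A2 was thus below COL18A1 in the Empty libraries and above it in those of NF-YAs. The TPM of NF-YAl replicate D were high relative to its CPM. On the TPM scale the median log2FC of all genes moved from about 0 to 0.25 in NF-YAl and 0.15 in NF-YAs, so differences between groups were taken from counts.

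Summed over the 6 chains, collagen IV transcripts amounted to 393 ± 18.6 CPM (SD, n = 3) in Empty, 773 ± 140 CPM in NF-YAl and 1093 ± 74.9 CPM in NF-YAs, that is 1.97 and 2.78 times Empty. The libraries of NF-YAl lay between 690 and 935 CPM, and no group overlapped another. The makeup of this sum differed as well. COL4A5 made up 55.9 ± 0.464% of the summed collagen IV TPM in Empty, while it made up 49.7 ± 3.76% in NF-YAl and 44.03 ± 2.11% in NF-YAs, with both lines below Empty. The share of COL4A2 was 26.05 ± 0.672%, 30.9 ± 2.40% and 35.9 ± 1.90% in the same order, without overlap. COL4A1 took 9.98 ± 0.613% in Empty and more in both lines, with 16.0 ± 1.98% in NF-YAl and 15.3 ± 0.646% in NF-YAs, which overlapped each other but not Empty. COL4A6 took 7.78 ± 0.696%, 3.21 ± 0.438% and 4.59 ± 0.446%, highest in Empty although its CPM was highest in NF-YAs. COL4A3 and COL4A4 together were below 0.5% in each library. These shares sum to a whole, so they do not move independently, and they were not tested.

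**Figure D4:**
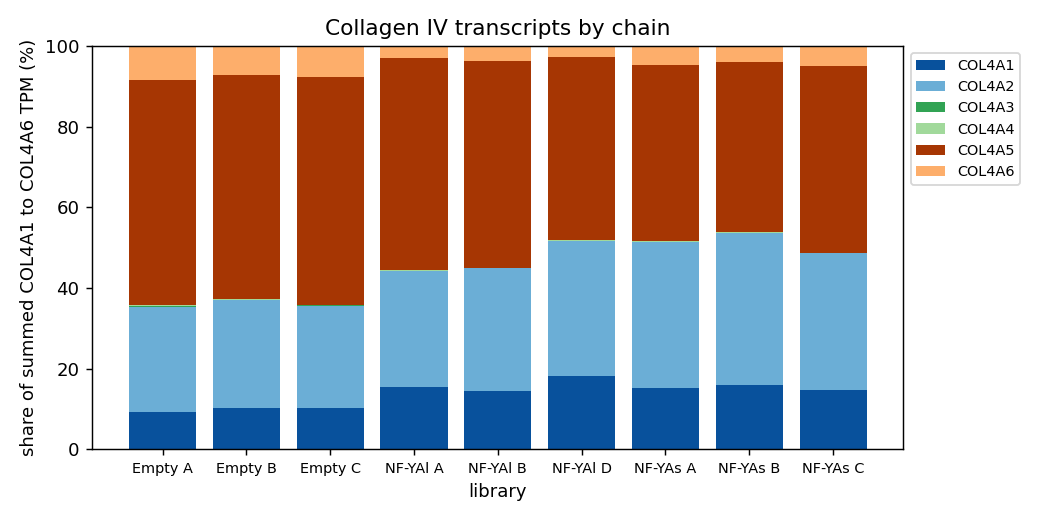
Share of the summed TPM of COL4A1 to COL4A6 (y axis, in percent) that each chain takes in each library (x axis), as stacked bars. COL4A5 has a mean of 55.9% in Empty and of 49.7% and 44.03% in NF-YAl and NF-YAs, and COL4A2 goes from 26.05% to 30.9% and 35.9%.

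Transcripts of a gene were compared by the percent of its TPM that each takes, in the 4 members with several counted transcripts and at least 1 TPM in each library. COL4A1 was nearly all full length, and its short transcript of 2575 bases took 4.58 ± 1.24% (SD, n = 3) of the gene's TPM in Empty, but 2.30 ± 0.585% in NF-YAl and 2.25 ± 0.773% in NF-YAs. Both lines were below Empty without overlap. The full-length transcript of COL4A1 thus rose by 2.28 percentage points in NF-YAl and 2.33 in NF-YAs, with p = 0.1 in the exact permutation test and 0.4 after adjustment over 12 tests. COL4A5 was split between transcripts of 6507 and 6525 bases, and the shorter took 50.8, 67.3 and 65.9% in the Empty libraries, 57.1, 62.3 and 68.7% in those of NF-YAl and 52.2, 49.6 and 54.3% in those of NF-YAs. NF-YAs lay below NF-YAl by 10.7 points without overlap (exact permutation p = 0.1, adjusted p = 0.4), while both overlapped Empty, whose replicate A stood apart. These transcripts differ by 18 bases, so the split rests on few informative reads. COL4A6 came almost only from a transcript of 6595 bases, at 94.5 to 100% over all libraries. For COL18A1 the shortest transcript, of 5436 bases, known as the short form and read from the upstream start, took 88.8 to 94.5%, with overlap between groups.

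Genes around the pairs were examined because neighbours can move together. Over the 79 nearest tested genes around COL4A1 and COL4A2, at most 50 on each side, the median log2FC was 0.070 in NF-YAl and 0.0026 in NF-YAs. Of these 79, 6 were DEGs up and 2 down in NF-YAl, against 4.76% and 3.5% of all tested genes. In NF-YAs 7 were up and 1 down, against 5.44% and 3.9%. IRS2, the nearest tested gene before COL4A1, had a log2FC of -1.09 in NF-YAl (adjusted p = 0.000529) and -0.62 in NF-YAs (adjusted p = 0.0140). Around COL4A5 and COL4A6, 21 of 100 tested neighbours were DEGs up in NF-YAs, against the 5.44% of all tested genes, and their median log2FC was 0.32. In NF-YAl the values were 9 of 100, against 4.76% of all tested genes, and 0.064. In the direct comparison 10 of these 100 were DEGs lower in NF-YAl, against 2.86% of all tested genes, with a median of -0.25. COL4A6 also lay on this side. NXT2, next after COL4A5, had a log2FC of 1.58 in NF-YAs (adjusted p = 0.00203). The part of either neighbourhood in the values of its pair was not tested. Around COL18A1 the median was 0.0028 in NF-YAl and -0.085 in NF-YAs over 66 genes.

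The genes whose pattern over the 9 libraries was most like that of a member were ranked by the root mean square difference of their centred log2 CPM among 12124 genes. For COL4A1 the nearest were FMNL1 (0.151), CPE (0.184), COL4A2 (0.197), LAMA4 (0.213) and ZNF677 (0.214), so that its partner was at rank 3. Seen from COL4A2, COL4A1 was at rank 6. For COL4A5 they were TGFBR2 (0.0839), SMARCD3 (0.0938), PDK2 (0.112), CROCC (0.127) and GRN (0.129), whereas its partner COL4A6 came at rank 3436 with a difference of 0.463. For COL18A1, a flat gene, they were ETNK2, ASXL1, RREB1, KDM4B and CDS2, at 0.0484 to 0.0622.

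Genes that make, bind or cut these collagens were followed in 5 lists. Of 23 tested genes for assembly and modification of collagen IV, 1 rose and 0 fell as DEGs in NF-YAl, and 1 rose and 1 fell in NF-YAs. Over all tested genes, 4.76% rose and 3.5% fell in NF-YAl, and 5.44% rose and 3.9% fell in NF-YAs. Without Empty replicate A, Empty replicate C or NF-YAl replicate B, 0 rose in NF-YAl, and without Empty replicate B, NF-YAl replicate A or NF-YAl replicate D, 2 did. In NF-YAs, 2 rose without Empty replicate B, NF-YAl replicate B, NF-YAl replicate D or NF-YAs replicate C, and with DESeq2, with no filter on low counts or with a replicate block, and 3 without NF-YAl replicate A. P3H3, a prolyl 3-hydroxylase family gene, had a log2FC of 1.35 ± 0.13 SE in NF-YAs (adjusted p = 1.6e-05) and of 0.97 ± 0.13 SE in NF-YAl (adjusted p = 0.00019). LOXL1, a lysyl oxidase, fell in NF-YAs from 107.4 ± 12.3 to 41.6 ± 1.86 CPM (adjusted p = 3.47e-05) and had a log2FC of -0.04 in NF-YAl (adjusted p = 0.871). LOXL2, the lysyl oxidase that crosslinks the 7S region of collagen IV, was at 113 ± 14.8 CPM in NF-YAl and 227 ± 9.65 CPM in NF-YAs (log2FC -1.01 ± 0.12 SE, adjusted p = 0.000129). In that direct comparison 1 gene of the list was higher in NF-YAl and 2 were lower. Of all tested genes 1.74% were higher and 2.86% lower. Without NF-YAl replicate D, 2 were higher. Without NF-YAl replicate A, NF-YAs replicate A or NF-YAs replicate C, 1 was lower, and without NF-YAs replicate B, 0 were.

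Of 27 tested basement membrane partners, 4 rose and 2 fell in each line against Empty. Beside this, 4.76% of all tested genes rose and 3.5% fell in NF-YAl, and 5.44% rose and 3.9% fell in NF-YAs. In NF-YAs, 1 partner fell without Empty replicate B, Empty replicate C or NF-YAs replicate B. LAMA4, the laminin α4 chain, rose by log2FC 1.68 ± 0.14 SE in NF-YAl and 1.86 ± 0.14 SE in NF-YAs (adjusted p = 7.08e-06 and 2.67e-06), close to COL4A1 in its pattern as stated above. SPARC, a matricellular protein that binds collagen IV, rose from 293.5 ± 26.7 CPM to 1540 ± 743 CPM in NF-YAl and 731 ± 42.1 CPM in NF-YAs (adjusted p = 3.68e-05 and 0.00159). The spread of NF-YAl is wide, but the groups did not overlap. LAMB3, a chain of laminin-332, fell in NF-YAl (log2FC -1.82 ± 0.18 SE, adjusted p = 1.72e-05) and had a log2FC of -0.48 ± 0.17 SE in NF-YAs (adjusted p = 0.0451). HSPG2, which codes for perlecan, fell in NF-YAs from 3114 ± 377 to 1398 ± 62.0 CPM (log2FC -1.16 ± 0.17 SE, adjusted p = 0.00032), opposite in direction to COL4A1 and COL4A2. In NF-YAl its log2FC was -0.82 ± 0.17 SE (adjusted p = 0.00345), short of the fold threshold of a DEG. The median of the list was 0.26 in NF-YAl and 0.24 in NF-YAs.

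Among 14 tested collagen receptors, 3 rose and 2 fell in NF-YAl, and 1 rose and 1 fell in NF-YAs. The shares of all tested genes were 4.76% up and 3.5% down in NF-YAl, and 5.44% up and 3.9% down in NF-YAs. ITGB3, the integrin β3 subunit, rose from 3.17 ± 0.761 CPM to 34.8 ± 11.5 CPM in NF-YAl and 66.5 ± 2.86 CPM in NF-YAs (adjusted p = 1.39e-06 and 3.99e-07). ITGA2, the α2 subunit of the collagen-binding integrin α2β1, fell from 259 ± 26.1 CPM to 104 ± 8.87 and 114 ± 11.7 CPM (adjusted p = 7.39e-06 and 1.22e-05). ADGRG6, a receptor that binds collagen IV, was higher in NF-YAl than in NF-YAs (log2FC 1.53 ± 0.14 SE, adjusted p = 3.42e-05). ADGRG1, an adhesion receptor of the same class, was lower there (log2FC -1.68 ± 0.15 SE, adjusted p = 3.55e-05).

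Of 23 tested proteases and inhibitors that act on collagens IV and XVIII, 5 rose and 2 fell in NF-YAl, and 7 rose and 5 fell in NF-YAs. All tested genes rose in 4.76% and fell in 3.5% of cases in NF-YAl, and in 5.44% and 3.9% in NF-YAs. The gelatinase gene MMP9 was low, at 0.674 ± 0.0706 CPM in Empty, and rose to 1.91 ± 0.266 CPM in NF-YAl (adjusted p = 0.000702) and to 5.52 ± 0.890 CPM in NF-YAs (adjusted p = 3.25e-06). MMP15, a membrane-type metalloproteinase, rose in both lines (log2FC 2.20 ± 0.22 SE and 1.63 ± 0.22 SE, adjusted p = 1.94e-05 and 0.000142). MMP13, a collagenase, fell in both, from 95.3 ± 15.3 CPM to 28.4 ± 4.02 and 41.3 ± 7.39 CPM (adjusted p = 1.07e-05 and 0.000108). TIMP3, an inhibitor of metalloproteinases bound to the matrix, had 605, 559 and 425 counts in the Empty libraries, while those of NF-YAl had 3, 2 and 2 and those of NF-YAs 26, 13 and 38. ADAMTS9, a metalloproteinase with thrombospondin repeats, had 2, 2 and 0 counts in the Empty libraries, 24, 17 and 19 in those of NF-YAl and 115, 116 and 161 in those of NF-YAs. In these genes a group was at 3 counts or fewer in each library, so no fold is given.

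Of 22 tested regulators of collagen IV transcription, NFYA included, 1 rose and 0 fell in NF-YAl, and 3 rose and 1 fell in NF-YAs. The shares of all tested genes were 4.76% up and 3.5% down in NF-YAl, and 5.44% up and 3.9% down in NF-YAs. In NF-YAl, 2 regulators rose without Empty replicate B, NF-YAl replicate A or NF-YAl replicate D. The same number rose with DESeq2, with no filter on low counts or with a replicate block, and 1 fell without NF-YAl replicate D. In NF-YAs, 0 regulators fell without Empty replicate C. With all libraries, the gene up in NF-YAl was NFYA itself. In NF-YAs they were NFYA, FLI1, an ETS factor (log2FC 2.01 ± 0.44 SE, adjusted p = 0.00367), and TGFBR2, the type II receptor of TGF-β (log2FC 1.16 ± 0.10 SE, adjusted p = 8.64e-06), while KLF4 fell (log2FC -1.06 ± 0.19 SE, adjusted p = 0.000909). The same genes had log2FC values of the same sign in NF-YAl, at 1.71 ± 0.44 SE for FLI1 (adjusted p = 0.0106), 0.81 ± 0.10 SE for TGFBR2 (adjusted p = 0.000119) and -0.75 ± 0.18 SE for KLF4 (adjusted p = 0.00852), without being DEGs. TGFBR2 was also the gene nearest to COL4A5 in pattern. NFYB and NFYC, the other subunits of NF-Y, had log2FC values of 0.62 ± 0.17 SE and 0.43 ± 0.11 SE in NF-YAl (adjusted p = 0.0155 and 0.0120) and of 0.21 ± 0.17 SE and 0.17 ± 0.11 SE in NF-YAs.

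**Figure D5:**
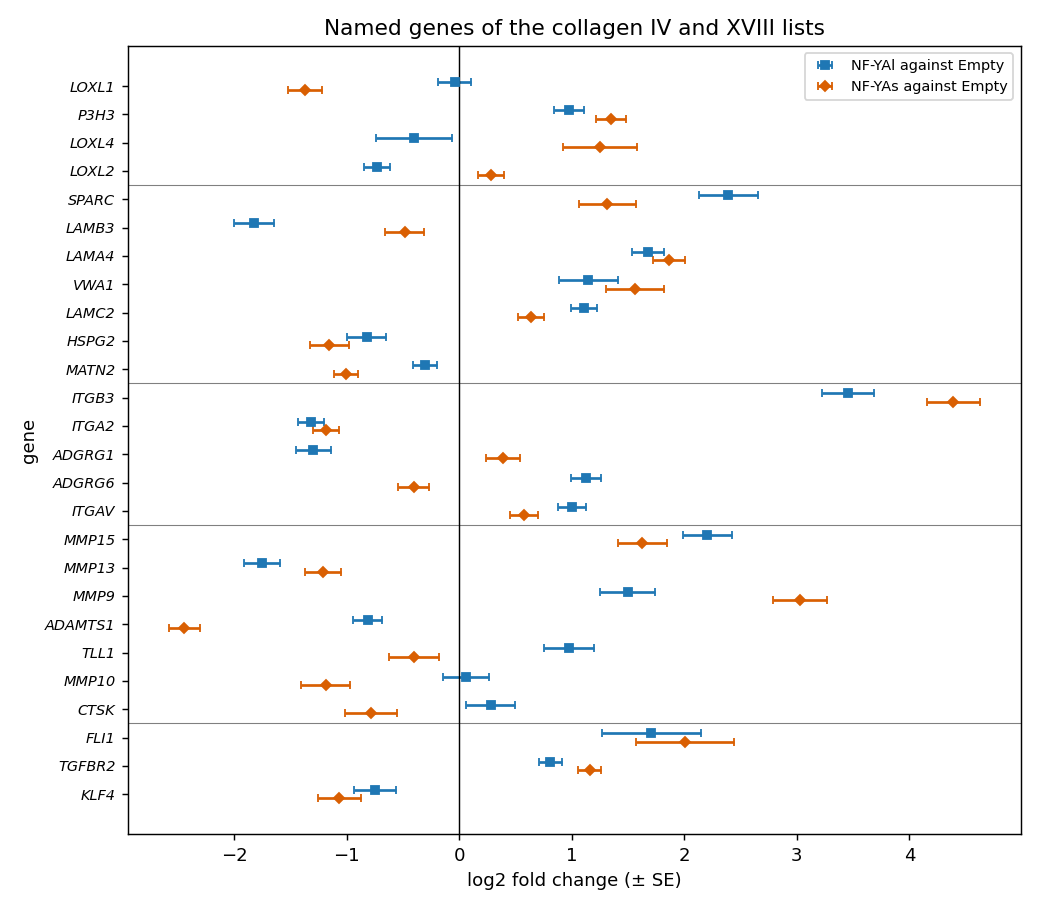
Log2 fold change ± SE (x axis) against Empty of the named list genes (y axis) in NF-YAl (squares) and NF-YAs (diamonds), from top to bottom assembly, basement membrane partners, receptors, proteases and inhibitors, and regulators, separated by grey lines. TIMP3 and ADAMTS9, with a group at 3 counts or fewer, are not drawn, and neither is NFYA. ITGB3 lies farthest to the right, and LAMA4 lies above 1 in both lines.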

How the data were processed

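Each library was prepared by the authors with a stranded total RNA kit, and the reads were aligned to human transcripts of hg19 (GRCh37) with Bowtie2 within RSEM. The authors deposited expected counts, RSEM's estimates of reads, which are not normalized, and TPM, which RSEM corrects for effective length, together with the percent of a gene's TPM taken by each transcript. The deposited lengths are in bases. Groups and replicate letters came from the sample labels. The study's methods describe 3 independent experiments, and the labels do not say which replicate letters share one.

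Rounded expected counts of the 17108 genes kept by filterByExpr entered 1 model of all 3 groups in edgeR 4.0.16 (TMM scaling, quasi-likelihood F test, Benjamini-Hochberg adjustment over all genes, R 4.3.3). As in the study, a gene with a |log2FC| above 1 and an adjusted p under 0.01 was a DEG. The SE is |log2FC| over the square root of F. Pair ratios and transcript shares were tested by exact permutation over libraries with scipy 1.17.1. Alternatives were DESeq2 1.42.0, limma 3.58.1 on log2(TPM + 0.5), RLE scaling, no filter on counts, a minimum of 10 counts in every library, fits of 2 groups, an offset for effective length, a block for the replicate letter, calls at an adjusted p of 0.05, and the omission of each library in turn. On simulated counts of 16886 genes for NF-YAs against Empty, edgeR recovered 200 of 200 changed genes and called 1 unchanged gene. Recovery in NF-YAl, and at the counts and fold changes of the members, was not tested. Promoter windows are from RefSeq (GRCh38.p14), all 8 members matched by symbol, and gene positions from GENCODE (GRCh37). Named genes were the members, the NF-Y subunits, up to 6 DEGs per list and comparison with at least 5 CPM in the higher group, of which the text names a part, and the 5 genes most like COL4A1, COL4A5 and COL18A1 (0.5 CPM added before log2). The nearest tested genes on the chromosome are named in addition. The members and lists were chosen with earlier results of these data known. Depth, at least 18076979 expected counts per library, limits precision mainly for COL4A3, COL4A4 and COL15A1. The result for 1 marker gene is not reported here.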

Additional observations from a re-analysis of the deposited data

Results flagged for a closer look

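Of the tested members, 2 differed between NF-YAl and NF-YAs when these were compared directly, at an adjusted p under 0.01 in edgeR. COL4A2 had a log2FC (NF-YAl against NF-YAs) of -0.7226, with both lines above Empty and NF-YAs higher in 3 of 3 libraries. COL4A6 had a log2FC of -0.9858, with NF-YAs above Empty in 3 of 3 libraries and NF-YAl below Empty in 2 of 3 libraries. Groups of 3 libraries are too small to test a single library as an outlier.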

How the results depend on the processing

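The calls of COL4A1, COL4A2 and COL4A5 as higher than Empty at an adjusted p under 0.01 held in both lines under each of the 9 alternative settings and with each library left out, with log2FC ranges in NF-YAl of 1.59 to 1.87, 1.07 to 1.48 and 0.62 to 1.08. Over all alternatives and tested members, 350 values kept their direction and side of the threshold, 13 lost the call, 5 gained it and 7 changed sign. The values that changed sign had not passed the test in either form. COL4A4 in NF-YAs was -0.00639 with the replicate block and ranged from -0.2955 to 0.2086 with a library left out. COL18A1 in NF-YAs was 0.113 with limma on TPM, where the median of all genes had shifted by 0.15, and ranged from -0.09263 to 0.007296 with a library left out. The same range was -0.06288 to 0.1958 in NF-YAl and -0.003672 to 0.2555 for NF-YAl against NF-YAs. Of 7 members, 0 were lower in NF-YAl than in NF-YAs at an adjusted p under 0.01 both with limma on TPM and in the fit of 2 groups, which has fewer libraries, in place of 2, and 1 to 2 were with a library left out. As DEGs there were 0 to 1. Against Empty, 0 to 1 members were lower in NF-YAl without the fold limit, the 1 being COL4A6 without NF-YAl replicate B. The cause was not tested. The letters A and B recur in each group. Residual correlations of same-letter libraries ran from -0.067 to 0.315, and those of different letters from -0.255 to 0.220. Both ends were higher for the same letter, which does not decide whether letters mark pairs. As the labels do not state pairs, the main fit had no block. The replicate block raised the members up as DEGs in NF-YAl from 2 to 3 by adding COL4A3 (log2FC 1.94, adjusted p = 0.00761), and those lower in NF-YAl than in NF-YAs from 2 to 3 by adding COL4A1 (log2FC -0.47, adjusted p = 0.00466). The pair ratios kept their direction under each alternative. The small counts of the gene lists moved more: with limma on TPM, 3 assembly genes and 4 regulators rose in NF-YAl in place of 1 and 1, and 0 basement membrane partners fell in NF-YAs in place of 2. Requiring 10 counts in every library, which tests fewer genes, left 2 proteases up in NF-YAl in place of 5 and 3 in NF-YAs in place of 7. Depth limits COL4A3, COL4A4 and COL15A1.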
